A study of Mus musculus with 12 samples.

Results

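Ionotropic and metabotropic receptors for glutamate, GABA and glycine were described in mouse hippocampus, across control mice and mutants that lack CREB and CREM, after saline or kainate. The receptors were taken by name: every probe set whose single annotated symbol begins with Gria, Grid and a digit, Grik (with 1 gene of that family not analysed here), Grin1, Grin2 or Grin3, Grm, Gabr, Gabbr, Glra or Glrb. This gave 33 probe sets of 26 genes, out of 12422 probe sets and 8251 genes on the array. The rule used names only, but it was set with earlier results of these data known. The classes were AMPA receptors with 8 probe sets of 4 genes, kainate receptors with 5 of 3, NMDA receptors with 4 of 4 and the delta receptors with 1. There was 1 metabotropic glutamate receptor probe set, 11 probe sets of 10 GABA-A receptor genes, 1 GABA-B receptor probe set and 2 glycine receptor probe sets.

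There were 4 groups: control mice given saline, control mice given kainate, mutant mice given saline and mutant mice given kainate. Littermates of both sexes, 5 to 6 weeks old, were caged singly and handled for 5 days, then injected intraperitoneally, with kainate at 20 mg/kg in the kainate groups, and killed 1 hour later. Each group had 3 Affymetrix MG-U74A arrays, hybridised with RNA of 3 pooled animals apiece, and the replicate was therefore a pool. The labels used here do not say by what alleles or in which cells the mutants lost CREB and CREM, nor what alleles the controls carry. Tissue was whole hippocampus, in which fewer cells of a type and less RNA per cell cannot be told apart.

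AMPA, kainate and NMDA receptors are tetrameric cation channels that carry fast excitatory transmission, and metabotropic glutamate receptors signal through G proteins. GABA-A receptors are pentameric chloride channels that carry fast inhibition, GABA-B receptors act through G proteins, and glycine receptors are chloride channels best known from the spinal cord and brainstem. Kainate, the injected agent, is an agonist of kainate and AMPA receptors and evokes hippocampal seizures.

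No receptor probe set passed the test in any of the 7 comparisons made over the 12 arrays. The comparisons were the kainate effect in controls, in mutants and averaged over both, the interaction of kainate with genotype, and the genotype effect under saline, under kainate and averaged over both. The test was limma's moderated test with Benjamini-Hochberg adjustment over all 12422 probe sets and a threshold of 0.05, and values are the deposited log2 values. For the kainate effect, 0 of 33 receptors passed in controls, where 0.33% of all probe sets did, 0 of 33 in mutants against 0.298%, and 0 of 33 averaged over genotypes against 0.942%. For the interaction it was 0 of 33 against 0%. For the genotype effect it was 0 of 33 under saline against 0.137%, under kainate against 0.354% and averaged over treatments against 0.612%. With so few calls on the whole array, a count of 0 among 33 lies near what the whole array gave.

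At an unadjusted p under 0.05, 5 receptor probe sets were found for kainate in controls (1 higher, 4 lower), where 7.37% of all probe sets reached it. In mutants there were 4, all lower (6.28% of all), and averaged over genotypes 8, 2 higher and 6 lower (11.9% of all). The interaction had 1 (0.861% of all) and the genotype effect under saline 1, lower (2.57% of all). The genotype effect under kainate had 0 (4.96% of all), as had its average over treatments (5.98% of all).

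The sign of the differences was examined among the 18 receptor probe sets whose mean over the 12 arrays lay above the median of all probe sets, called brighter here. Of these, 15 had a negative kainate difference averaged over genotypes, with a median of -0.25, against 60.9% of the 6211 brighter probe sets of the array and their median of -0.05. The count was 14 after quantile normalisation and 15 with each array centred on its median. No test was made of this count, and several of the 18 measure the same gene.

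The 4 replicate 1 arrays, 1 in each group, stood apart from replicates 2 and 3 for some receptors. Their mean difference from replicates 2 and 3 was -1.51 for Gria3, -1.47 for Gabra2, -1.09 for Gria1 (92943_at) and -0.66 for Gabrb1. Others stood higher: 0.47 for Grik5 (104409_at), 0.38 for Gria1 (92944_at) and 0.35 for Gria2 (92946_f_at). The probe sets of Gria1 thus deviated in opposite directions on these arrays. The labels give no reason for a shared number to matter. Same-numbered pairs are given below as description only, since a pairing is not established. Chosen partly by their result, the receptors that passed for kainate without the replicate 1 arrays, and a few others, are given below with and without them. Without them each group has 2 arrays. The receptor counts over the 24 alternatives run for the averaged kainate effect ranged from 0 to 15, with 14 alternatives calling none and the 15 coming from array weights that did not converge. That leaving these arrays out raises the number of kainate calls on the whole array was known from earlier results of these data.

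The values of control kainate replicate 3 were spread less widely than those of the other 11 arrays (interquartile range 3.74, elsewhere 4.40 to 4.61). Markers of cell types were read in the same fit. The neuronal marker Map2 was lower after kainate averaged over genotypes (-2.06 ± 0.33, SE; adjusted p = 0.0167, limma), the only one of 8 measured general neuron markers to pass. In the mutants averaged over treatments, 7 of 11 measured microglial markers passed higher, where 0.612% of all probe sets passed. The astrocyte filament Gfap (1.62) passed higher, the only 1 of 8 measured astrocyte markers to pass. Bok (0.69) passed higher, the only 1 of 5 CA3 and CA2 markers to pass. The median of that list was -0.06, and 1 of its markers was lower at an unadjusted p under 0.05. The CA1 marker Wfs1 passed lower (-1.04), 1 of 2 measured. Of these CA1 markers, 2 of 2 were lower at an unadjusted p under 0.05, with a list median of -0.84. For kainate, the 3 choroid plexus markers had a list median of -0.85 in controls, -0.13 in mutants and -0.52 averaged, and 0 passed. Summed log2 levels of the 11 microglial markers ran from 71.1 to 71.5 in control saline, 72.1 to 74.1 in control kainate, 79.0 to 80.2 in mutant saline and 79.8 to 82.5 in mutant kainate arrays. Those of the 8 neuron markers ran from 82.5 to 84.0, 78.0 to 82.8, 81.0 to 84.0 and 77.3 to 81.9 in the same order. The part of these markers in the receptor values was not tested. The targeted genes themselves, Creb1 with 3 probe sets and Crem with 2, differed in mutants by -0.09 to -0.29 and none passed (adjusted p of 0.141 and above). Where these probes lie relative to the disrupted parts of the genes is not given in the sources used here.

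The 250 bases before an annotated start were read for receptor genes with an entry in RefSeq's promoter table (GRCm38.p6). These were 18 of the 26 genes, in 24 windows. Of the 24, 11 lay at the outermost annotated start of the gene, and some genes had several windows. Gria1, Gria3, Grik1, Grid1, Grin2a, Grin2b, Gabrd and Glra1 had no entry and were not searched. The windows are shown for Gria2, Gabra2 and Gabrg1, 3 of the genes that passed the kainate test when replicate 1 was left out. Gria1 and Gria3 passed it too, and whether they carry the motifs is not known here. Capitals mark the GC box GGGCGG. The windows lie at chr3:80802836-80803085, chr5:71095850-71096099 and chr5:70842618-70842867, all on the minus strand and printed 5′ to 3′ of the gene.
Gria2: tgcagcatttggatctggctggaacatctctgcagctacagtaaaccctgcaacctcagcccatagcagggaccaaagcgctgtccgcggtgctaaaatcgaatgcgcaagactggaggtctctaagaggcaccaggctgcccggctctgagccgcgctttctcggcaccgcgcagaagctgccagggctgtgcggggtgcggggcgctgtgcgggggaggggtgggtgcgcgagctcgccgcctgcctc
Gabra2: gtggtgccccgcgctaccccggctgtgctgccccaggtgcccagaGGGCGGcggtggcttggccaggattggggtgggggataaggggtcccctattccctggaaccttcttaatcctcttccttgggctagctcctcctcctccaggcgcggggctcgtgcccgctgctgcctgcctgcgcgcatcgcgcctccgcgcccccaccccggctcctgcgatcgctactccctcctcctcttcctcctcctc
Gabrg1: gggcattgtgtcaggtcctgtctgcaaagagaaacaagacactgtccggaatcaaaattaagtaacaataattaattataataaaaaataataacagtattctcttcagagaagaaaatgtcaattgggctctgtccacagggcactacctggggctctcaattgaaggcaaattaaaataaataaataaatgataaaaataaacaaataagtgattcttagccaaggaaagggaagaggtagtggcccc
The full cAMP response element TGACGTCA, the sequence CREB and CREM bind, was in 0 of the 24 receptor windows and in 1.55% of the 32851 windows of all genes. The short form of that element, TGACG, was in 2 of 24, those of Gabrr1 and Grm8, and in 17.8% of all. Of the other 3 motifs searched on both strands, the AP-1 element TGANTCA was in 1 (Grm8; 6.75% of all), the EGR element GCGTGGGCG in 0 (0.536% of all) and the GC box in 9 of 24 (32.7% of all). The full element contains the short form. A match, or its lack, is a description of these letters in these windows only. On the genome Gabrg1 lies beside Gabra2, and Gria2 beside Glrb, with 0 coding genes between them.

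Among the AMPA receptors, which carry most fast excitation in the hippocampus, Gria1 (the GluA1 subunit) had 2 probe sets. On 92944_at the control saline arrays read 10.23, 9.99 and 9.93 for replicates 1, 2 and 3, and the control kainate arrays 9.76, 9.20 and 9.27. The mutant saline arrays read 9.65, 9.86 and 9.88, and the mutant kainate arrays 9.67, 8.57 and 8.89. All 3 control kainate arrays lay below all 3 control saline arrays, while in mutants replicate 1 read about the same under both treatments. The difference averaged over genotypes was -0.69 ± 0.18 (SE, 12 arrays; adjusted p = 0.116, limma), with -0.64 in controls and -0.75 in mutants.

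On the other Gria1 probe set, 92943_at, control saline arrays read 10.51, 11.62 and 11.62 and control kainate arrays 10.30, 11.19 and 11.14. Mutant saline arrays read 10.20, 11.48 and 11.51 and mutant kainate arrays 9.79, 10.88 and 10.88. Replicate 1 was lowest in each group, by more than any group difference, so the groups overlapped. Within a replicate number, kainate read lower than saline in 6 of 6 pairs of arrays, and the averaged difference was -0.46 ± 0.32 (SE; adjusted p = 0.790, limma). Without replicate 1 both Gria1 probe sets passed for kainate averaged over genotypes: -0.93 ± 0.09 for 92944_at (adjusted p = 0.00479, limma) and -0.54 ± 0.07 for 92943_at (adjusted p = 0.00823, limma).

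**Figure D1:**
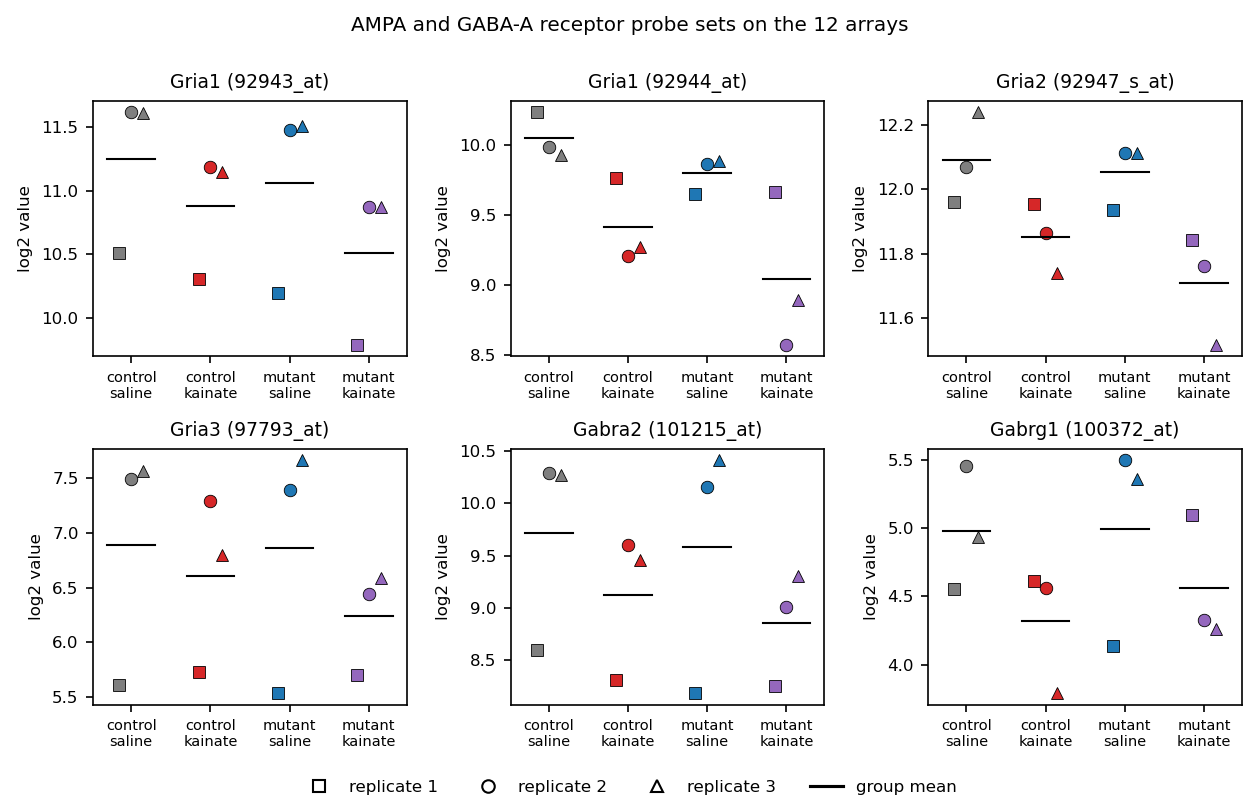
Log2 values of 6 receptor probe sets (panels) on each of the 12 arrays, by group, with the replicate number as the symbol and a line at each group's mean. Replicate 1 lies lowest in every group for Gria1 92943_at, Gria3 and Gabra2, and kainate reads below saline for replicates 2 and 3 in all 6 panels.

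Gria2, the GluA2 subunit that limits calcium entry through AMPA receptors, had 4 probe sets, which did not move alike. On 92947_s_at control saline arrays read 11.96, 12.07 and 12.24, control kainate arrays 11.96, 11.86 and 11.74, mutant saline arrays 11.94, 12.11 and 12.11 and mutant kainate arrays 11.84, 11.76 and 11.52. Kainate arrays lay below saline arrays in each genotype, without overlap, although the closest same-numbered pair differed by only -0.01. The averaged difference was -0.29 ± 0.08 (SE; adjusted p = 0.142, limma). The difference was -0.61 ± 0.19 on 92946_f_at (adjusted p = 0.195, limma), 0.32 ± 0.11 on 92945_at (adjusted p = 0.249, limma) and -0.01 ± 0.13 on 162076_r_at. Thus 1 of the 4 probe sets read higher after kainate, and none passed. Without replicate 1, 92946_f_at (-0.92 ± 0.12, adjusted p = 0.0107, limma) and 92947_s_at (-0.41 ± 0.09, adjusted p = 0.0447, limma) passed and the others did not.

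**Figure D2:**
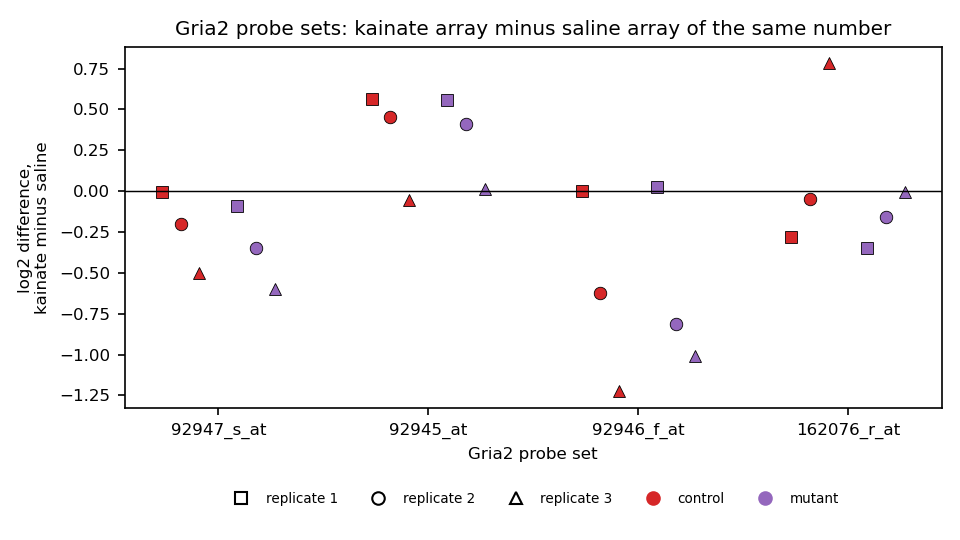
Kainate array minus saline array of the same replicate number (log2) for the 4 probe sets of Gria2, in controls and mutants. Probe set 92947_s_at is below 0 in 6 of 6 pairs and 92945_at above 0 in 5 of 6.

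Gria3, the GluA3 subunit, read 5.61, 7.49 and 7.57 in control saline, 5.73, 7.30 and 6.80 in control kainate, 5.54, 7.39 and 7.66 in mutant saline and 5.70, 6.44 and 6.59 in mutant kainate arrays. Replicate 1 was lowest in every group, and on it kainate read slightly above saline in both genotypes. The averaged difference was -0.45 ± 0.47 (SE; adjusted p = 0.900, limma) over 12 arrays and -0.75 ± 0.13 (adjusted p = 0.0217, limma) without replicate 1. Gria4 lay at the 20.1 percentile of all probe sets and differed by 0.04 ± 0.07.

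Among the kainate receptors, Grik2 (GluK2) had 2 probe sets. On 98864_s_at control saline arrays read 5.06, 4.82 and 4.35, control kainate arrays 4.30, 3.75 and 4.32, mutant saline arrays 4.45, 4.54 and 4.79 and mutant kainate arrays 4.53, 3.81 and 3.87. The control groups did not overlap, the nearest arrays reading 4.35 and 4.32, and the mutant groups did. The averaged difference was -0.57 ± 0.17 (SE; adjusted p = 0.174, limma), and that of 98863_at was -0.22 ± 0.10 (adjusted p = 0.474, limma), lower in 6 of 6 same-numbered pairs. Without replicate 1, 98864_s_at stood at -0.69 ± 0.16 (SE; adjusted p = 0.0556, limma).

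Grik1 (GluK1) read 5.29, 5.29 and 5.13 in control saline, 5.43, 5.75 and 5.54 in control kainate, 5.43, 5.37 and 5.20 in mutant saline and 5.28, 5.72 and 5.44 in mutant kainate arrays. The control kainate arrays lay above the control saline arrays, and the mutant groups overlapped. The difference in controls was 0.34 ± 0.13 (SE; adjusted p = 0.586, limma), and Grik1 and Gria2 (92945_at) were the receptors that read higher averaged over genotypes at an unadjusted p under 0.05.

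Grik5 (GluK5), which joins other kainate receptor subunits, read 9.84, 9.35 and 9.38 in control saline, 9.80, 9.23 and 9.34 in control kainate, 9.76, 9.41 and 9.39 in mutant saline and 9.43, 8.80 and 9.01 in mutant kainate arrays on 104409_at. Replicate 1 was highest in each group, and mutant kainate arrays were lowest within each replicate number. The kainate difference was -0.07 in controls and -0.44 in mutants, and the interaction was -0.38 ± 0.29 (SE; adjusted p = 0.939, limma). With single arrays left out the interaction of Grik5 (104409_at) ran from -0.55, without mutant kainate replicate 1, to -0.21, without control kainate replicate 1. Its kainate difference averaged over genotypes was -0.25 ± 0.15 with 12 arrays and -0.29 ± 0.08 without replicate 1 (SE; adjusted p = 0.0878, limma). The dim probe set 162074_r_at differed by 0.00 ± 0.06 averaged over genotypes.

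NMDA receptors form the calcium-permeable channels needed for much hippocampal plasticity. Of their 4 probe sets, that of Grin2c (GluN2C) was the only 1 above the median level. It read 7.52, 7.59 and 7.88 in control saline, 7.36, 7.22 and 7.06 in control kainate, 7.43, 7.32 and 7.34 in mutant saline and 7.33, 7.32 and 7.31 in mutant kainate arrays. The control saline arrays lay above all 9 others. The kainate difference in controls was -0.45 ± 0.11 (SE; adjusted p = 0.218, limma), against -0.04 ± 0.11 in mutants. The interaction was 0.41 ± 0.15 (adjusted p = 0.939, limma) and the genotype difference under saline -0.30 ± 0.11 (adjusted p = 0.9998, limma). Grin2a, Grin2b and Grin2d lay at or below the 28.0 percentile of all probe sets and differed by at most 0.03 in size averaged over genotypes. Levels of different probe sets do not rank the subunits, and such low readings do not show that these transcripts were scarce. Grin1 had no probe set among the receptors. Grin2a was named for the genotype effect under saline, at -0.11 ± 0.09.

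The delta receptor Grid1, an organiser of synapses, differed by 0.00 ± 0.06 after kainate and by -0.01 between genotypes averaged over treatments. Its arrays ran from 4.51 to 4.62 in control saline, 4.44 to 4.66 in control kainate, 4.48 to 4.58 in mutant saline and 4.41 to 4.70 in mutant kainate, and the groups overlapped. The metabotropic glutamate receptor Grm8, which is presynaptic and inhibitory, lay at the 37.2 percentile. It read 3.56, 3.61 and 3.30 in control saline, 3.93, 3.31 and 3.51 in control kainate, 3.42, 3.35 and 3.34 in mutant saline and 3.38, 3.21 and 3.33 in mutant kainate arrays. Its genotype difference was -0.20 ± 0.10 averaged over treatments (adjusted p = 0.630, limma), and its groups overlapped.

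Among the GABA-A receptors, Gabra2 (the alpha-2 subunit) read 8.60, 10.29 and 10.27 in control saline and 8.31, 9.60 and 9.46 in control kainate arrays. Mutant saline arrays read 8.19, 10.16 and 10.41 and mutant kainate arrays 8.25, 9.01 and 9.31. Replicate 1 was far below the others in every group, and among replicates 2 and 3 all 4 kainate arrays lay below all 4 saline arrays. The averaged difference was -0.66 ± 0.45 (SE; adjusted p = 0.769, limma), and -0.94 ± 0.10 without replicate 1 (adjusted p = 0.00622, limma).

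Gabrg1 (gamma-1), whose gene lies beside Gabra2, read 4.55, 5.45 and 4.93 in control saline, 4.61, 4.56 and 3.79 in control kainate, 4.14, 5.50 and 5.36 in mutant saline and 5.10, 4.33 and 4.26 in mutant kainate arrays. Kainate minus saline was 0.06 and 0.96 within replicate 1, in controls and mutants, and between -0.89 and -1.17 within replicates 2 and 3. The 12-array difference of -0.55 ± 0.28 (SE; adjusted p = 0.512, limma) became -1.07 ± 0.19 without replicate 1 (adjusted p = 0.0229, limma).

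Gabra3 (alpha-3), a probe set below the median level, read 3.26, 3.46 and 3.69 in control saline, 3.13, 3.13 and 3.64 in control kainate, 3.22, 3.58 and 3.73 in mutant saline and 3.12, 3.08 and 3.15 in mutant kainate arrays. The mutant kainate arrays lay below the mutant saline arrays, with a difference of -0.39 ± 0.17 (SE; adjusted p = 0.786, limma). Gabrb1 (beta-1), the GABA-A probe set with the highest mean, ran from 10.21 to 10.68 in control saline, 9.95 to 10.67 in control kainate, 10.13 to 10.76 in mutant saline and 9.81 to 10.80 in mutant kainate. These groups overlapped and its kainate difference was -0.13 ± 0.20, or -0.05 ± 0.08 without replicate 1.

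The remaining GABA-A probe sets, of Gabra6, Gabrb2, Gabrd, Gabrg3, Gabrr1 and Gabrr2, lay at or below the 30.1 percentile. Together with the dim members of the other classes, Gabra3 included, they made 15 probe sets below the median level. Of the 15, 10 had their highest value on the control kainate replicate 3 array, the one with the narrow interquartile range, Gabrb2 at 3.29 against 2.34 to 2.45 on the other 11. Gabrb2 was named for the genotype effect under kainate, at -0.32 ± 0.20 (SE; adjusted p = 0.530, limma), and this became -0.02 when the control kainate replicate 3 array was left out.

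**Figure D3:**
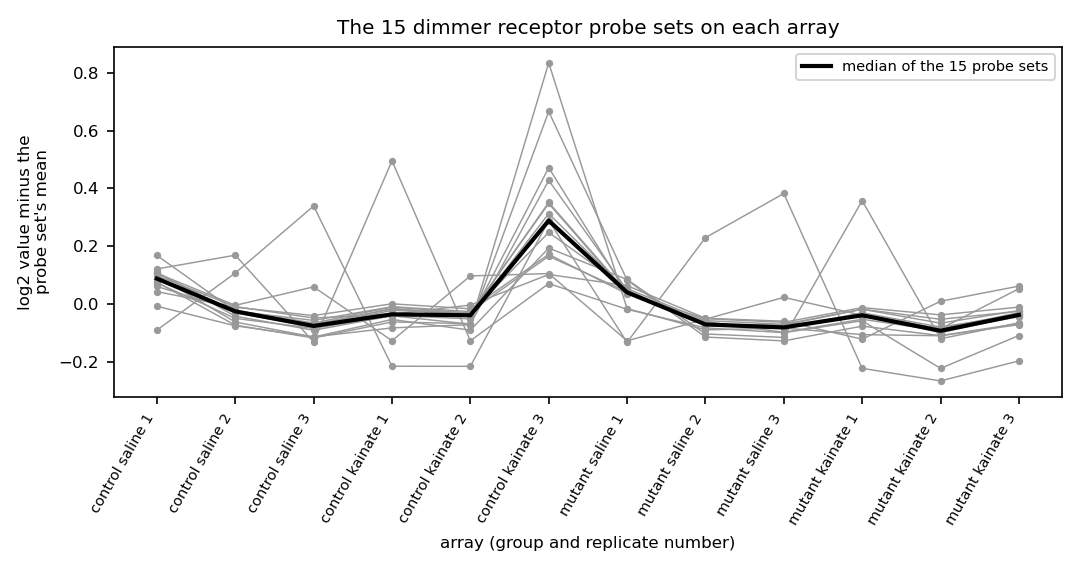
Log2 value minus the probe set's own mean for the 15 receptor probe sets below the median level, on each of the 12 arrays, with the median of the 15 as the heavy line. The control kainate replicate 3 array holds the highest value of 10 of the 15.

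The GABA-B receptor subunit Gabbr1 ran from 10.43 to 10.66 in control saline, 10.20 to 10.66 in control kainate, 10.36 to 10.53 in mutant saline and 10.29 to 10.58 in mutant kainate arrays. The groups overlapped, with a kainate difference of -0.10 ± 0.09 (SE; adjusted p = 0.900, limma). The glycine receptor beta subunit Glrb, which anchors the receptor to gephyrin, read 10.80, 10.86 and 10.74 in control saline, 10.73, 10.81 and 10.72 in control kainate, 10.69, 10.59 and 10.69 in mutant saline and 10.82, 10.38 and 10.62 in mutant kainate arrays. The saline groups did not overlap, and the genotype difference averaged over treatments was -0.14 ± 0.07 (SE; adjusted p = 0.630, limma). Glra1 lay at the 5.67 percentile and differed by 0.04 ± 0.06 after kainate.

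Complete separation of the arrays was counted over all receptors. For kainate in controls 4 of 33 were lower without overlap (4.75% of all probe sets) and 1 higher (2.29%). In mutants 3 were lower (7.39%) and 1 higher (4.98%), and over both genotypes together 0 were lower (1.14%) and 0 higher (0.628%). Between genotypes, 3 were lower in mutants under saline (3.24%) and 0 higher (3.85%), and under kainate 1 lower (4.97%) and 0 higher (4.03%). Over both treatments 0 were lower (0.242%) and 0 higher (0.733%). Kainate read below saline within all 6 same-numbered pairs for 5 of 33 receptors, against 5.96% of all probe sets. They were Gria1 (92943_at), Gria2 (92947_s_at), Gabra3, Grik2 (98863_at) and Grik5 (104409_at). All but Gabra3 were among the 18 brighter receptors, and 10.8% of all brighter probe sets were lower in 6 of 6 pairs.

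With the replicate 1 arrays left out, 7 of 33 receptor probe sets passed for kainate averaged over genotypes, all lower, where 4.66% of all probe sets passed lower and 9.06% of the brighter ones did. They belonged to 5 genes: Gria1 and Gria2 with 2 probe sets each, Gria3, Gabra2 and Gabrg1. The other probe sets of Gria2 did not pass, and 92945_at read higher after kainate over 12 arrays (0.32 ± 0.11, SE). Gria2 as a gene is therefore not shown to be lower. Of the 7, Gabrg1 and Gria2 (92947_s_at) did not pass in this fit after centring each array on its median or after quantile normalisation, and Gria3 did not after centring. In mutants 3 passed, all lower (0.411% of all): both Gria1 probe sets and Gabra2, at -1.13 ± 0.14 (SE; adjusted p = 0.0315, limma). In controls 0 passed (0.805% of all), although Gria1 (92944_at) stood at -0.72 ± 0.13 (adjusted p = 0.0553, limma) and 10 receptors had an unadjusted p under 0.05, as had 15.7% of all probe sets. The difference between the genotypes was not called for any receptor, so the kainate effect is not shown to differ between them. With all 12 arrays kept and replicate 1 as an additive term, 3 passed averaged over genotypes (both Gria1 probe sets and Gabra2; 1.59% of all lower). In mutants 1 then passed, Gria1 (92943_at; 0.129% of all), and in controls 0 (0.0725% of all).

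In the fit without replicate 1, 3 of 8 neuron markers passed lower for kainate averaged over genotypes, where 4.66% of all probe sets did. They were Map2 (-2.70), Syt1 (-1.29) and Nefl (-0.49). Cck (-0.37) passed lower, 1 of 12 interneuron markers (list median 0.02). Of 11 microglial markers (list median 0.14), Cx3cr1 (-0.34) passed lower and Csf1r (0.40) higher. Gfap (0.84) passed higher, 1 of 8 astrocyte markers (list median 0.01), as did 199 of all 12422 probe sets. The median over the 8 neuron markers was -0.27, against 0.08 over all probe sets and -0.08 over the brighter ones. The part of these in the receptor differences was not tested.

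**Figure D4:**
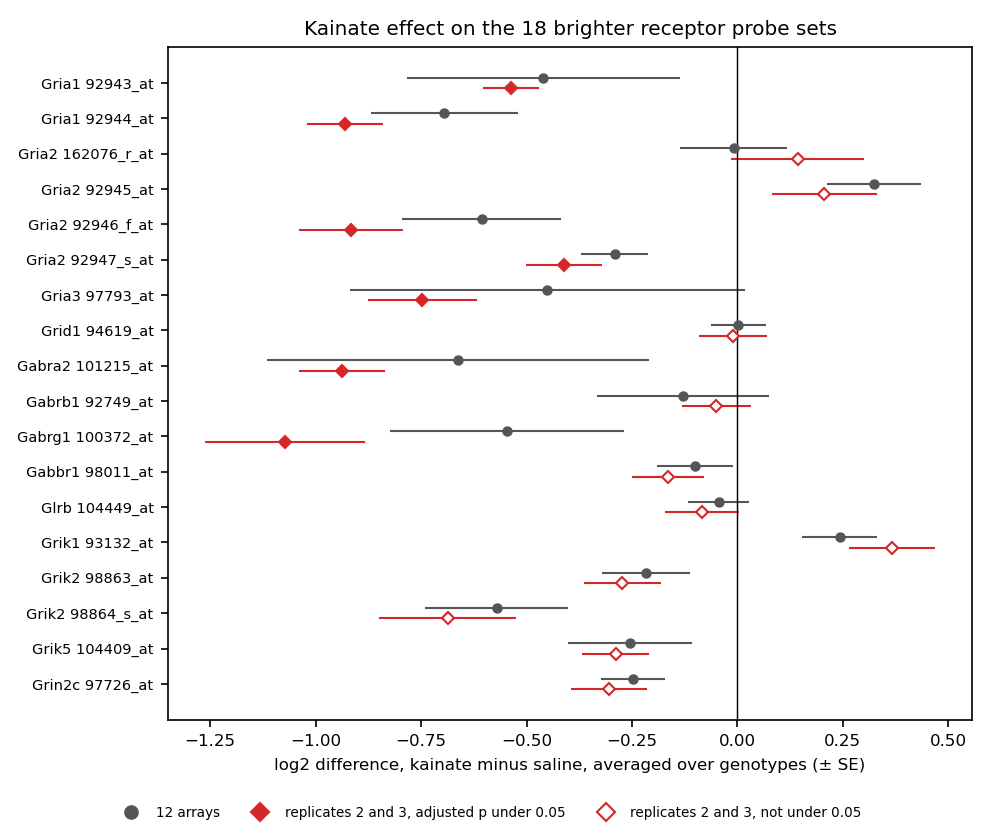
Kainate minus saline averaged over genotypes (log2, ± SE) for the 18 brighter receptor probe sets, over 12 arrays (circles) and over replicates 2 and 3 (diamonds, filled where the adjusted p is under 0.05). Of the 18, 15 lie below 0 in each fit, 7 diamonds are filled, and no circle passed.

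Between genotypes, 16 of the 18 brighter receptors read lower in mutants averaged over treatments, with a median of -0.10, against 40.2% of all brighter probe sets and their median of 0.04. Centring each array on its median left 14 of 18. With replicate 1 left out it was 15 of 18, with a median of -0.12 against 37.6% and 0.06. In that fit 9 of 18 were lower under saline, with a median of -0.001 against 50.6% and -0.002. Under kainate 14 of 18 were lower, with a median of -0.17 against 31.8% and 0.12. With every array kept, the largest difference averaged over treatments among the 18 was that of Gria1 (92944_at), at -0.31 ± 0.18 (SE; adjusted p = 0.630, limma). Its 6 of 6 same-numbered pairs were lower in mutants. So were those of the other Gria1 probe set and of several dim receptors, such as Gria4 and Grin2d. For Grin2d these differences ran only from -0.008 to -0.18, the largest against control kainate replicate 3. No share over all probe sets is given for this count, so it is not read as a trait of the receptors. By a different measure, 66.2% of all probe sets had a negative difference averaged over treatments. None of these receptor differences passed, and glial markers differed between the genotypes as given above.

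**Figure D5:**
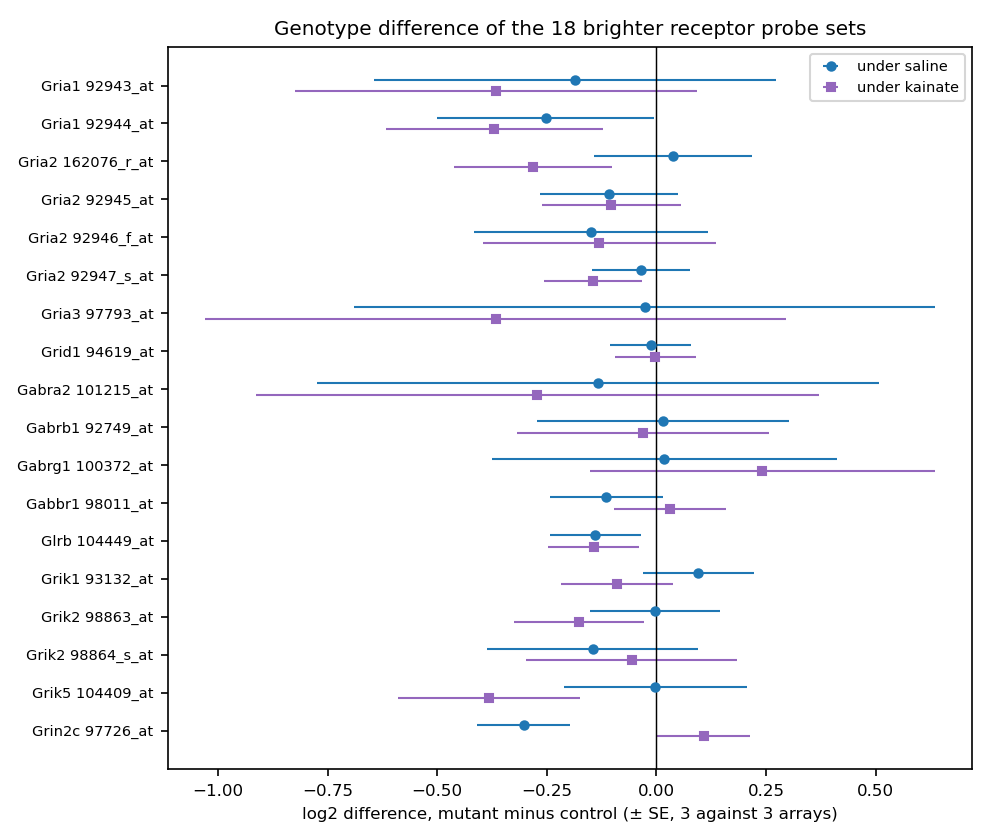
Mutant minus control (log2, ± SE, 3 against 3 arrays) for the 18 brighter receptor probe sets, under saline and under kainate. None passed, and the largest difference under saline is that of Grin2c at -0.30.

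The proteins that hold and traffic these receptors at synapses were measured for 19 of the 41 genes listed, and those that make, move and balance the transmitters for 14 of 26. In the 12-array fit 0 of 19 and 0 of 14 passed in each of the 7 comparisons (limma). For kainate averaged over genotypes 3 of 19 (1 higher, 2 lower) and 1 of 14 (higher) had an unadjusted p under 0.05, against 11.9% of all probe sets. The list medians were -0.13 and 0.03, against 0.03 over all probe sets and -0.05 over the brighter ones.

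The neuronal pentraxin Nptx2, which clusters AMPA receptors, read 1.34 ± 0.30 higher after kainate (SE; adjusted p = 0.0743, limma). The scaffold Dlg3 (SAP102) stood at -0.41 ± 0.13 for the same kainate difference. For genotype averaged over treatments Homer3 stood at 0.17 ± 0.07 and the AMPA receptor auxiliary Cnih2 at -0.23 ± 0.11. The gephyrin gene Gphn, the scaffold of inhibitory synapses, stood at -0.50 ± 0.18 for kainate in controls and Pick1 at 0.15 ± 0.11 for genotype under saline. Without replicate 1, 2 of the 19 passed lower for kainate averaged over genotypes, Dlg3 (-0.67) and Homer1 (-0.63), and 1 higher, Nptx2 (1.38). All 19 were brighter probe sets, of which 9.06% passed lower on the whole array.

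Of the transmitter genes, the vesicular GABA transporter Slc32a1 read 0.20 ± 0.05 higher after kainate averaged over genotypes (SE; adjusted p = 0.142, limma), and the GABA transporter Slc6a13 0.14 ± 0.08. In controls the glutamate transporter Slc1a2 stood at -0.35 ± 0.25 and in mutants the chloride importer Slc12a2 at 0.31 ± 0.18. The interaction of the glycine transporter Slc6a9 was 0.55 ± 0.53. For genotype averaged over treatments, the neutral amino acid transporter Slc1a4 stood at 0.23 ± 0.08 (adjusted p = 0.449, limma) and the glutamate transporter Slc1a6 at 0.11 ± 0.08, and under kainate the transporter Slc6a12 at -0.16 ± 0.11. None of these passed.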

How the data were processed

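The authors' deposited table holds log2 values of 12488 probe sets, made with GCRMA in R 2.4.1 per the submitters' processing notes; whether the arrays were processed together is not given in the sources used here. Here 66 control probe sets were left out and the other 12422 all entered the fit, whatever their level. Gene symbols are those of the array's annotation table (10833 probe sets with 1 symbol, 396 with several, 1193 with none). Groups follow the labels, and the 3 pools of a group are the replicates.

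One mean per group was fitted to the 12 arrays with limma 3.58.1 in R 4.3.3 (degrees of freedom: 8 residual, 2.48 prior). Each test was two-sided, with Benjamini-Hochberg adjustment over all tested probe sets and a threshold of 0.05. SE is that of the fit. The script was tested on simulated data. Receptors named with every array were, per comparison, those past the threshold and the 3 with the smallest p, and the one with the highest mean of each class; Gria3, Gabra2, Gabrg1 and the second probe sets were added as they passed without replicate 1 or share a gene. The members and all lists were chosen with earlier results of these data known. Beside leaving out each of the 12 arrays, 9 other settings were tried, and 4 more were chosen after seeing the data. Array number limits precision, and arrays give no counts.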

Additional observations from a re-analysis of the deposited data

How the results depend on the processing

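With 12 arrays and equal weights no receptor passed; 25 alternatives were run. Array weighting moved the counts most. The weights first used were from limma's default method, which did not converge (weights 0.0204 to 75.2); it called 9, 13, 15, 4, 20, 6 and 8 receptors for kainate in controls, in mutants and averaged, the interaction, and genotype under saline, under kainate and averaged, and 3347, 3182, 4276, 1204, 8537, 713 and 2699 of all probe sets. The gene-by-gene method was put beside it after those counts were seen (weights 0.0321 to 6.17): 7 receptors in mutants, 11 averaged over genotypes and 1 for genotype under saline, with 380, 1619, 2036, 8, 680, 99 and 478 of all probe sets. Neither set of counts is used as a result. With the replicate block, 2 receptors passed for kainate averaged over genotypes (both Gria1 probe sets) and 245 of all probe sets against 117, and 30, 67 and 124 against 17, 44 and 76 for genotype under saline, under kainate and averaged. Same-numbered deviations correlated at 0.368 to 0.848 for replicate 1, 0.302 to 0.583 for replicate 2 and -0.011 to 0.621 for replicate 3, with 16 of 18 pairs over 0.1. Those between saline and kainate controls were not all over 0.1, those between the other groups compared were, and the labels name no shared litter, batch or day; the number was not taken as a pairing, and this was not settled. Replicate 1 as an additive term gave 1 in mutants and 3 averaged (64 and 333 of all probe sets; 38, 77 and 140 for genotype). Only replicates 2 and 3 gave 3 and 7 (146, 94 and 778 of all for kainate; 2, 10 and 47 for genotype). A further 3 variants of that fit were chosen after seeing the data. Centring gave 1 and 4; quantile normalisation gave 1 in controls, 5 in mutants, 7 averaged and 1 each for genotype under kainate and averaged; leaving out control kainate replicate 3 as well, so that control kainate is 1 array assumed to vary like the other groups, gave 2, 8, 10 and, for genotype averaged, 1. Of all probe sets, these called 121, 44 and 478 (centring), 130, 172 and 817 (quantile) and 582, 871 and 1709 (control kainate replicate 3 out) for kainate in controls, in mutants and averaged, and 1, 2 and 20, 0, 11 and 44, and 27, 39 and 208 for genotype under saline, under kainate and averaged. Leaving out single arrays gave 0 to 1 for kainate averaged: Gria2 (92946_f_at) without control kainate replicate 1 and Gria1 (92944_at) without mutant kainate replicate 1. Centring all 12 arrays gave 62 of all probe sets for kainate averaged and 20 for genotype under kainate; fitting only the arrays compared gave 22 for kainate in controls and 5 for genotype under kainate.

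Of 822 fits of 34 named results, 728 kept sign and side of the threshold, 47 passed it and 47 changed sign, none of these called. For kainate averaged, Grid1 was -0.00913 and -0.0187 with the default and gene-by-gene weights, and -0.0108, -0.0459 (centred), -0.0181 (quantile) and -0.0635 (control kainate replicate 3 also out) without replicate 1; leaving out single arrays gave -0.0373 to 0.0358. Grm8 was -0.0119 after quantile normalisation, -0.0610, -0.0960, -0.166 and -0.111 in the same 4 fits without replicate 1, and -0.0722 to 0.0836 with 1 array left out. Gabbr1 was 0.0299 with the default weights; with 1 array left out, Gabrb1 ranged from -0.232 to 0.0145 and Glrb from -0.0977 to 0.0115. For genotype averaged, Grid1 was 0.00129 after quantile normalisation, 0.0265 centred, 0.0113 and 0.0177 weighted, 0.0140 without replicate 1 and control kainate replicate 3, and -0.0467 to 0.0264 with 1 array left out. Gabrb1 was 0.0272 centred, 0.292 and 0.163 weighted, 0.0448, 0.0811, 0.0273 and 0.0310 in the 4 fits without replicate 1, and -0.122 to 0.136 with 1 array left out. Gabbr1 was 0.0266 without replicate 1 and centred, and -0.0917 to 0.0249 with 1 array left out. Grm8 for genotype under kainate was 0.0597 after quantile normalisation without replicate 1. The causes were not tested.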
